A study of Arabidopsis thaliana with 12 samples.

Results

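The genes described here encode the proteins of the 2 photosystems and of their light-harvesting antennae in regenerating tissue of *Arabidopsis thaliana* L*er*. A locus was counted as a member when the homologs in Col that the deposited TPM table lists for it include a name starting with LHCA, LHCB, PSA or PSB, and 3 loci named PSAT, which are not photosystem genes, were left out. The rule used names only and no measured value. It found 43 members among 27147 loci. They comprise 12 loci for subunits of photosystem I (PSI), 6 for its antenna (LHCI), 7 for the oxygen-evolving complex of photosystem II (PSII), 4 for small PSII subunits, 10 for the PSII antenna (LHCII) and 4 for PSII assembly and repair factors. The loci of LHCB1, the most abundant antenna protein, carry other names in the table and were not members. They are described with the partner genes.

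RNA was sequenced from 4 groups with 3 biological replicates each. WT was compared with *dme-2* plants at 2 stages. The mutation *dme-2* affects *DEMETER* (*DME*), a gene for a DNA demethylase, and both genotypes have the L*er* background. Callus of the stage DAC7 grew from true leaves of 2-week-old seedlings for 7 days on callus-inducing medium (CIM), which holds the auxin 2,4-D and the cytokinin kinetin, in continuous darkness. De novo shoots of the stage DAS14 came from such callus that then spent 14 days on shoot-inducing medium (SIM) with indole-3-acetic acid and 2-isopentenyl adenine, under long days. Stage, medium and light therefore changed together and cannot be told apart. Each library was made from bulk tissue, so that fewer green cells and less RNA per green cell cannot be told apart either. How many plants or explants were pooled for a library is not given in the sources used here.

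Both photosystems sit in the thylakoid membrane of the chloroplast, where PSII splits water and PSI passes electrons to ferredoxin. Their reaction centre cores are encoded in the chloroplast genome. The peripheral subunits described here, the extrinsic proteins of the oxygen-evolving complex and the LHCA and LHCB antenna proteins are encoded in the nucleus. The nuclear genes are known for strong joint expression in green leaf cells, for induction by light and for dependence on the GOLDEN2-LIKE (GLK) transcription factors.

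Total counts ranged from 12981250 to 20128757 per library. Members took 4.94% to 5.04% of the counts in WT shoots, 4.20% to 4.38% in *dme-2* shoots and 0.0439% to 0.0548% in WT calli. *DME* itself (ATLER-5G14070) was listed at 10.1 to 13.2 TPM in WT calli and 3.14 to 3.54 TPM in *dme-2* calli, and at 18.7 to 19.4 TPM in WT shoots and 7.49 to 7.89 TPM in *dme-2* shoots. TPM is transcript abundance scaled for length and to the same total in every library. Once each library is centred on its median, the ratio of count to TPM of a locus should be nearly the same in all libraries. It was compared with the median of the locus over the 9 libraries other than *dme-2* callus, which thus set the reference themselves. Over 15330 loci, the median absolute log2 deviation was 0.032 to 0.084 in these 9 libraries, but 0.914 to 1.15 in the 3 libraries of *dme-2* callus. For *LHCB5*, for example, the count columns of *dme-2* callus held 484, 485 and 515 counts against 145, 238 and 215 in WT calli, although TPM was 12.2, 13.9 and 7.98 against 13.5, 14.7 and 14.8. Counts were thus tested only where *dme-2* calli do not enter, and comparisons with *dme-2* calli rest on TPM. Shoot and callus labels were checked by markers. The summed TPM of 6 leaf mesophyll loci was 16979 to 27863 in shoots and 34.1 to 70.0 in calli, while that of 8 root and callus loci was 25.8 to 34.0 in shoots and 92.6 to 123 in calli. Of these 8, *SCR* and *SHR* had higher WT means in shoots than in calli.

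The members were among the most abundant transcripts of shoots and were low in calli. Their summed TPM was 79525, 79877 and 80671 in WT shoots, or 7.95% to 8.07% of all TPM. In *dme-2* shoots it was 71666, 69358 and 69993, or 6.94% to 7.17%. In calli it was 696, 878 and 918 TPM in WT and 742, 799 and 497 TPM in *dme-2*. The genotypes thus did not overlap in shoots and overlapped in calli. In shoots of either genotype 30 of the 43 members were among the 100 loci with the highest mean TPM, and in calli none was.

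**Figure D1:**
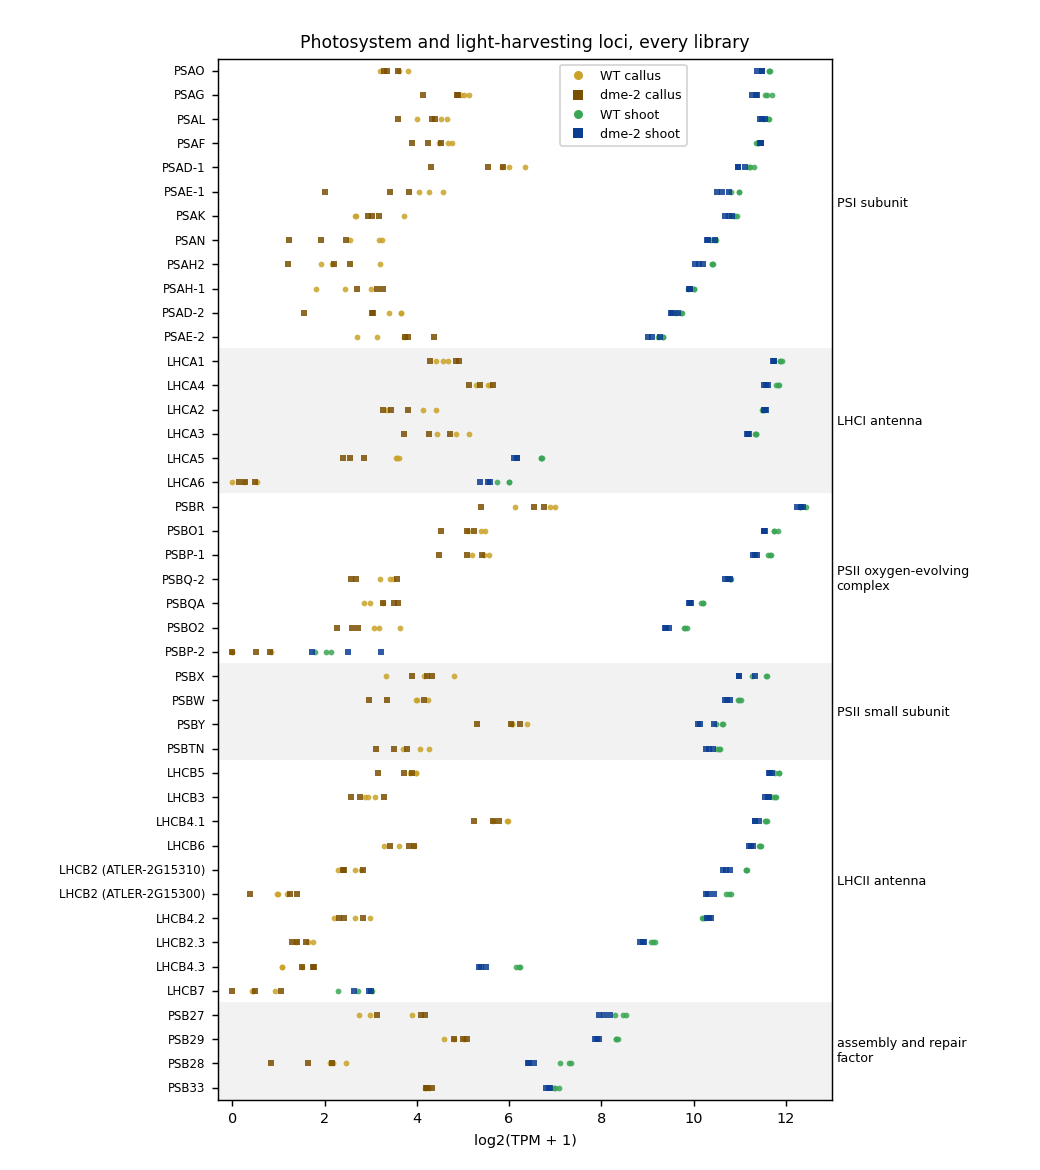
Level of each of the 43 members in each of the 12 libraries, as log2(TPM + 1), by subunit class. Circles are WT and squares *dme-2*, and each library is 1 point. Every member lies higher in all 6 shoot libraries than in all 6 callus libraries.

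All 43 members rose from callus to shoot in both genotypes. In WT, 43 of 43 were called higher by the quasi-likelihood test of edgeR with Benjamini-Hochberg adjusted p-values, where 43.4% of the 19616 loci tested were called higher and 38.4% lower. Here and below a call is an adjusted p under 0.05. The median log2 fold change of the members was 6.20, with a range of 2.46 to 9.62. The median of all loci tested was 0.14 with TMM normalization and 0.68 when only library size was used, so that the members stand far above either. In *dme-2*, limma on log2(TPM + 1) called 43 of 43 higher, where 49.0% of 18729 loci were called higher and 23.8% lower. The median difference there was 6.89, on a scale that understates the change of low genes, and the 2 medians are not comparable because the tools and scales differ.

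The LHCII antenna had the largest median rise in WT (7.45) and the assembly and repair factors the smallest (3.89). *LHCB2* (ATLER-2G15300), a major LHCII protein, went from 0.98, 1.29 and 0.95 TPM in WT calli to 1670.22, 1782 and 1732 TPM in WT shoots. Its log2 fold change of 9.62 (standard error 0.19, edgeR adjusted p = 3.72e-09) was the largest among members. *PSB33*, a thylakoid protein needed for PSII maintenance, had the smallest fold change, 2.46 (standard error 0.10, edgeR adjusted p = 4.40e-08). It was already at 17.4, 18.1 and 17.0 TPM in WT calli and reached 134, 127 and 125 TPM in WT shoots. The order of abundance also differed. *PSBR*, a PSII subunit beside the oxygen-evolving complex, was the most abundant member in all 4 groups and ranked 6 among all loci in WT shoots and 1714 in WT calli. After it in WT calli came *PSBY*, *PSAD-1* and *LHCB4.1*, with means of 71.8, 66.5 and 57.4 TPM, whereas in WT shoots *LHCA1*, *LHCA4* and *LHCB5* followed, with means of 3778, 3621 and 3619 TPM. *LHCA6* and *PSBP-2* had at most 7 counts in any WT callus library, and no fold is given for them.

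The main question of the design was how *dme-2* differed from WT, and in shoots most members were slightly lower in *dme-2*. Of the 43 members, 31 were called lower (72.1%), 2 were called higher and 10 were not called. Over all 19114 loci tested, 26.1% were called lower and 26.7% higher, so that lower calls were more frequent among the members than among all loci. The changes were small. Their median was −0.21 on the log2 scale, against −0.0045 for all loci, the range was −0.82 to 0.84, and no called member passed a 2-fold change. With library size as the only scaling, the median was −0.25 for members and −0.05 for all loci. Summed member TPM in *dme-2* shoots was 0.879 of that in WT shoots. In TPM, every *dme-2* library was below every WT library for 31 members, as for 28.2% of 18473 loci, and above for 3 members, as for 25.3% of loci.

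Shoot replicates were close, with a median coefficient of variation of 2.80% in WT and 3.80% in *dme-2* over the members. When WT calli were added to the fit, so that callus and shoot libraries shared 1 estimate of the spread, 9 of the 31 lower calls remained and neither of the 2 higher ones. These 9 were *PSB28*, *LHCB4.3*, *LHCA5*, both *LHCB2* loci on chromosome 2, *PSB27*, *PSB29*, *PSBO2* and *LHCA6*. Calls over all loci were fewer in this fit too. It called 2362 of 19954 loci lower and 3075 higher, against 4995 and 5098 of 19114 with the shoot libraries alone.

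**Figure D2:**
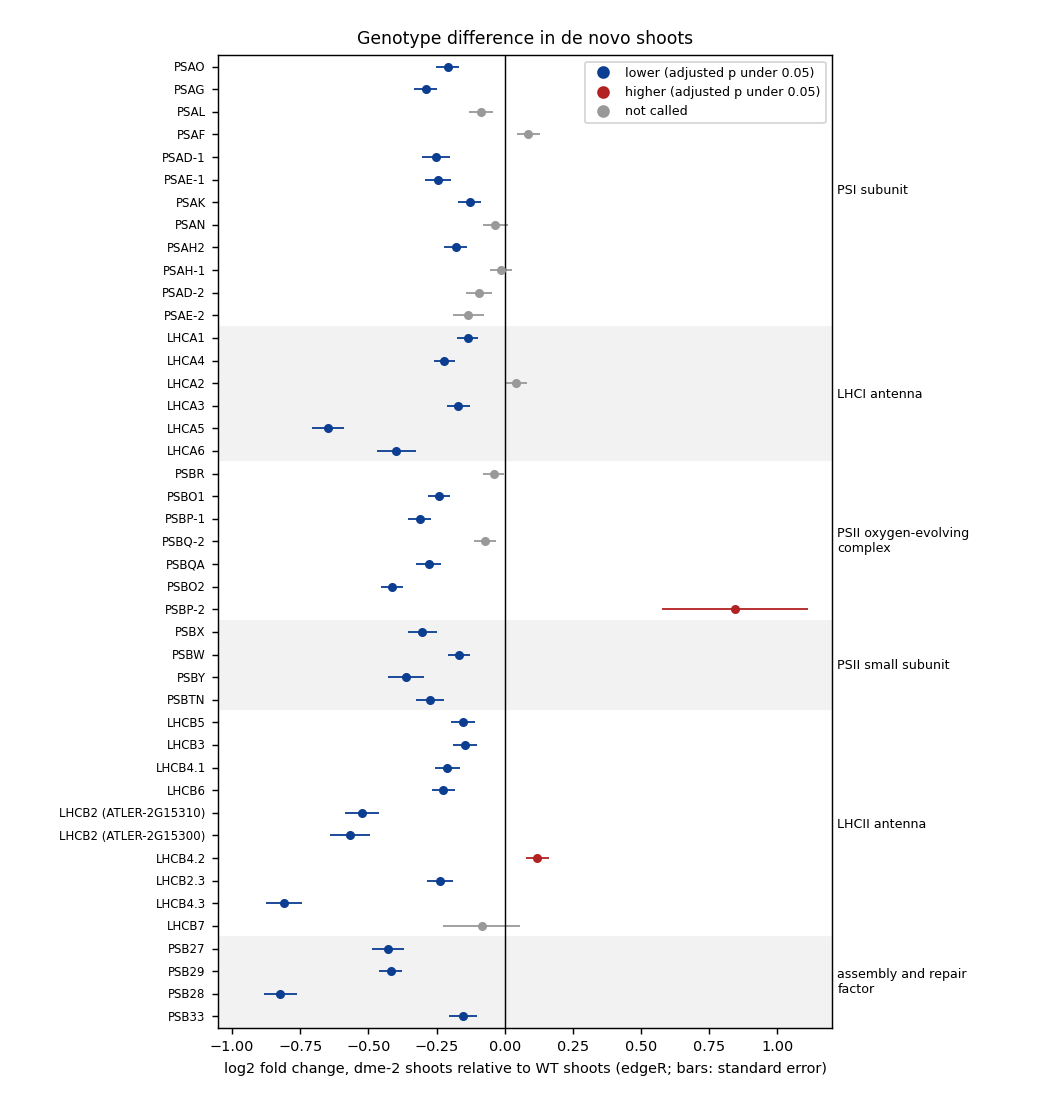
log2 fold change of *dme-2* shoots relative to WT shoots for each member, by subunit class, from edgeR, with bars for the standard error (3 libraries per genotype). Blue points are the 31 members called lower, red points the 2 called higher and grey points the 10 not called. Most members lie between −0.1 and −0.4, with *PSB28* and *LHCB4.3* near −0.8.

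Among the PSI subunits, 6 of 12 were called lower, 6 were not called, and the class median of −0.13 was the closest to 0 of the 6 classes. *PSAG*, a membrane subunit on the LHCI side of PSI, fell most. It had 3349, 3000.34 and 3088 TPM in WT and 2467, 2644 and 2625 TPM in *dme-2* shoots (log2 fold change −0.29, standard error 0.04, edgeR adjusted p = 2.71e-06). *PSAO*, which lies where LHCII docks to PSI and was the most abundant PSI gene in WT shoots, had 3186, 3212 and 3186 TPM in WT and 2666, 2875 and 2851 TPM in *dme-2* (−0.21, standard error 0.04, edgeR adjusted p = 0.000189). For both genes the genotypes did not overlap.

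The stromal subunits PSAD and PSAE, on which ferredoxin docks, are each encoded by a pair of genes. The more abundant copy of each pair fell, with log2 fold changes of −0.25 for *PSAD-1* and −0.24 for *PSAE-1* (edgeR adjusted p = 0.000167 and 0.000116). *PSAD-2* and *PSAE-2* had −0.09 and −0.13 and were not called (edgeR adjusted p = 0.0908 and 0.0508). Without *dme-2* shoot replicate 1, however, *PSAD-2* and *PSAE-2* were called lower too, at −0.14 and −0.23 (edgeR adjusted p = 0.00203 and 1.91e-05), and *PSAE-2* also without WT shoot replicate 1. Whether the copies of a pair differed in their change was not tested. *PSAF*, the docking subunit for plastocyanin, was the PSI gene with the highest fold change. All 3 of its *dme-2* values (2839, 2776 and 2799 TPM) lay above the WT values (2706, 2611 and 2713 TPM), but the log2 difference of 0.09 was not called (edgeR adjusted p = 0.0849). It was called higher without WT shoot replicate 1 or *dme-2* shoot replicate 1 (edgeR adjusted p = 0.0343 and 0.0277). *PSAL*, *PSAN* and *PSAH-1* were not called either, with −0.09, −0.03 and −0.01, but *PSAL* was called lower without WT shoot replicate 2 or *dme-2* shoot replicate 1 (edgeR adjusted p = 0.0409 and 0.00807).

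Among the LHCI genes, 5 of 6 were called lower, and the 2 that encode rare antenna proteins changed most. LHCA5 and LHCA6 are known as linkers between PSI and the chloroplast NADH dehydrogenase-like complex rather than as bulk antenna. *LHCA5* had 103, 105 and 103 TPM in WT and 71.3, 67.9 and 71.3 TPM in *dme-2* shoots (log2 fold change −0.65, standard error 0.06, edgeR adjusted p = 1.03e-09). *LHCA6* had 52.2, 63.2 and 63.0 TPM in WT and 47.2, 40.6 and 45.3 TPM in *dme-2* (−0.40, standard error 0.07, edgeR adjusted p = 4.06e-05). The genotypes did not overlap for either.

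The bulk LHCI antenna of LHCA1 to LHCA4 moved less. *LHCA1*, the most abundant of them, had 3840, 3762 and 3731 TPM in WT and 3365, 3422 and 3451 TPM in *dme-2* (−0.14, standard error 0.04, edgeR adjusted p = 0.005). *LHCA3* and *LHCA4* were also called, at −0.17 and −0.22. *LHCA2* had 2928, 2865 and 2908 TPM in WT and 2974, 2968 and 3018 TPM in *dme-2*, and its log2 difference of 0.04 was not called (edgeR adjusted p = 0.379). LHCA1 pairs with LHCA4 and LHCA2 with LHCA3 in the antenna belt of PSI. The ratio of *LHCA1* to *LHCA2* was 1.28 to 1.31 in the WT libraries and 1.13 to 1.15 in the *dme-2* libraries. The ratio of *LHCA3* to *LHCA5* was 24.8 to 25.6 in WT and 32.6 to 33.8 in *dme-2*.

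**Figure D3:**
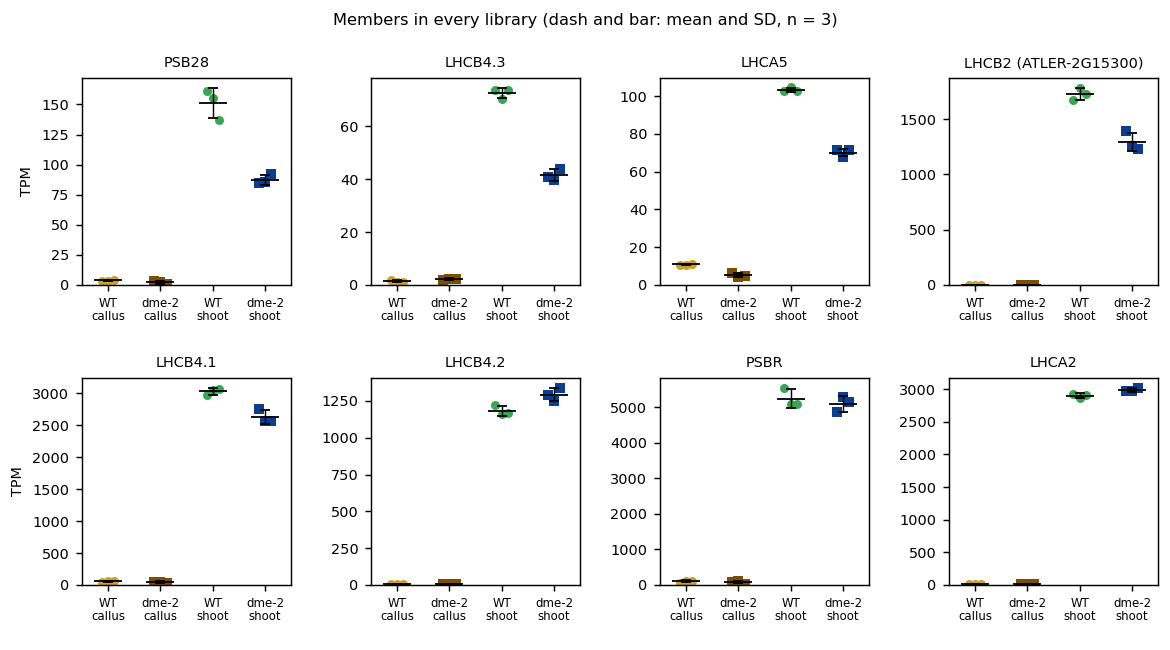
TPM of 8 members in every library of the 4 groups, with the mean (dash) and SD (bar) of 3 libraries. *PSB28*, *LHCB4.3*, *LHCA5*, *LHCB2* and *LHCB4.1* lie lower in all *dme-2* shoot libraries than in all WT shoot libraries, *LHCB4.2* and *LHCA2* lie slightly higher, and *PSBR* overlaps.

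In the LHCII antenna, 8 of 10 members were called lower and 1 higher, with a class median of −0.22. LHCB1 and LHCB2 form the mobile outer trimers. The 2 *LHCB2* loci on chromosome 2 fell by 0.57 (ATLER-2G15300) and 0.52 (ATLER-2G15310) on the log2 scale, with standard errors of 0.07 and 0.06 (edgeR adjusted p = 4.24e-07 and 1.95e-07). The first had 1670.22, 1782 and 1732 TPM in WT and 1391, 1262 and 1229 TPM in *dme-2* shoots, and the second 2234, 2263 and 2281 TPM against 1775, 1604 and 1674 TPM. No values overlapped between genotypes. The *LHCB2.3* locus on chromosome 3 fell by 0.24 (standard error 0.05, edgeR adjusted p = 0.000196). Each of these 3 loci is listed with the same 3 homologs, so that reads may have been split among them and the share of each is uncertain.

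*LHCB3*, which encodes the other trimer protein, and the genes of the monomeric antenna proteins *LHCB5* (CP26) and *LHCB6* (CP24) were lower by −0.15, −0.15 and −0.23. *LHCB5*, the most abundant LHCII member, had 3502, 3671 and 3684 TPM in WT and 3323, 3196 and 3231 TPM in *dme-2* (standard error 0.04, edgeR adjusted p = 0.00491). *LHCB7*, a rare antenna protein, had 3.92, 5.66 and 7.11 TPM in WT and 5.19, 6.81 and 7.01 TPM in *dme-2*, and was not called.

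Of the 3 genes of the monomeric antenna protein CP29, 2 were called lower and 1 higher. *LHCB4.1*, the major one, had 2970.4, 3056 and 3067 TPM in WT and 2750.27, 2559 and 2566 TPM in *dme-2* (−0.21, standard error 0.05, edgeR adjusted p = 0.000581). *LHCB4.2* was the one antenna gene called higher, with 1222, 1159 and 1171 TPM in WT and 1290.08, 1249.78 and 1339 TPM in *dme-2* (0.12, standard error 0.04, edgeR adjusted p = 0.0227). That call was lost when WT shoot replicate 2, WT shoot replicate 3 or *dme-2* shoot replicate 3 was left out (edgeR adjusted p up to 0.105) and under library size only. *LHCB4.3*, which encodes the shorter isoform, also named LHCB8, had 73.7, 70.3 and 73.9 TPM in WT and 41.0, 39.8 and 44.0 TPM in *dme-2*.

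The fall of *LHCB4.3* by 0.81 on the log2 scale (standard error 0.07, edgeR adjusted p = 2.15e-10) was the largest among antenna genes and brought it to 57.3% of the WT mean. The ratio of *LHCB4.1* to *LHCB4.2* was 2.43 to 2.64 in WT and 1.92 to 2.13 in *dme-2* libraries, and that of *LHCB4.1* to *LHCB4.3* was 40.3 to 43.5 in WT and 58.3 to 67.1 in *dme-2*. *LHCB4.1* and *LHCB4.2* are each listed with 2 homologs, so that the split of reads between them is uncertain.

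In the oxygen-evolving complex, 4 of 7 members were called lower and 1 higher. PSBO, PSBP and PSBQ are the extrinsic proteins that cover the manganese cluster on the lumen side. *PSBO2*, the minor PSBO gene, had 922, 885 and 901 TPM in WT and 667, 708 and 677 TPM in *dme-2* shoots (−0.41, standard error 0.04, edgeR adjusted p = 8.44e-09). *PSBO1*, the major one, had 3618, 3444 and 3434 TPM in WT and 2946, 2996 and 2967 TPM in *dme-2* (−0.24, standard error 0.04, edgeR adjusted p = 1.90e-05). The genotypes did not overlap for either, and the ratio of *PSBO1* to *PSBO2* was 3.81 to 3.92 in WT and 4.23 to 4.42 in *dme-2*. *PSBP-1* and *PSBQA* were lower as well, by −0.31 and −0.28, whereas *PSBQ-2* had −0.07 and was not called (edgeR adjusted p = 0.134).

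*PSBR* had 5549, 5096 and 5099.97 TPM in WT and 4859, 5299 and 5163 TPM in *dme-2*. Its groups overlapped, and the log2 difference of −0.04 was not called (edgeR adjusted p = 0.406). *PSBP-2*, a PSBP paralog, was the other member called higher. It had 34, 16 and 27 counts in WT and 64, 39 and 44 counts in *dme-2* shoots, and its log2 fold change of 0.84 had a standard error of 0.27 (edgeR adjusted p = 0.0109). In TPM, however, the groups overlapped, at 3.12, 2.46 and 3.42 in WT against 8.32, 4.72 and 2.33 in *dme-2*, and limma did not call it. Its call was also lost when WT shoot replicate 2 or *dme-2* shoot replicate 1 was left out.

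All 4 genes of small PSII subunits were called lower, with a median of −0.29. *PSBY* fell most, from 1444, 1571 and 1586 TPM in WT to 1394, 1124 and 1089 TPM in *dme-2* shoots (−0.36, standard error 0.07, edgeR adjusted p = 5.41e-05). *PSBX* had 2466, 3032 and 3102 TPM in WT and 2580.46, 2014 and 2034 TPM in *dme-2* (−0.30, standard error 0.05, edgeR adjusted p = 4.94e-05). *PSBW*, whose product stabilizes the PSII supercomplex, had 1983, 2079 and 2026 TPM in WT and 1757, 1646 and 1689 TPM in *dme-2* (−0.17, standard error 0.04, edgeR adjusted p = 0.000966). For *PSBX* the groups overlapped in TPM, since *dme-2* replicate 1 lay above WT replicate 1. It was the only one of the 31 lower calls whose groups overlapped in TPM. *PSBTN*, a small lumen subunit, was lower by −0.27.

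The 4 genes of assembly and repair factors were all called lower and had the lowest median of the classes, −0.42. *PSB28*, known from cyanobacteria as a factor that binds PSII during its assembly, had 161, 155 and 137 TPM in WT and 84.6, 85.4 and 91.9 TPM in *dme-2* shoots. Its log2 fold change of −0.82 (standard error 0.06, edgeR adjusted p = 2.64e-11) was the lowest of all members and brought it to 57.7% of the WT mean. *PSB27*, which acts in PSII assembly and repair in the lumen, had 314, 353 and 369 TPM in WT and 289.55, 265 and 248 TPM in *dme-2* (−0.43, standard error 0.06, edgeR adjusted p = 1.18e-06). For both genes the genotypes did not overlap.

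*PSB29*, also known as THF1 and needed for normal thylakoid formation, had 318, 326 and 317 TPM in WT and 239, 245 and 233 TPM in *dme-2* (−0.42, standard error 0.04, edgeR adjusted p = 1.33e-08). *PSB33* had 134, 127 and 125 TPM in WT and 109.99, 118 and 115 TPM in *dme-2* (−0.15, standard error 0.05, edgeR adjusted p = 0.0159). Neither overlapped between genotypes, but the call of *PSB33* was lost when WT shoot replicate 1 or *dme-2* shoot replicate 3 was left out.

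Calls near the threshold also changed with single libraries for *PSAK* (without WT shoot replicate 1), *LHCB5* (without WT shoot replicate 3) and *LHCB3* (without WT shoot replicate 3 or without *dme-2* shoot replicate 2). The remaining called members kept their calls with each shoot library left out. The larger falls were mostly in the less abundant members. The 9 members with a WT shoot mean under 500 TPM had a median log2 fold change of −0.42, with 7 called lower, and the 34 members above it had a median of −0.19, with 24 called lower. This level was chosen after the values had been seen, and the difference was not tested.

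Genes that work beside the photosystems were described from a list of 24 loci. Of these, 18 were called lower in *dme-2* shoots and 1 higher, where 26.1% of all 19114 loci tested were called lower and 26.7% higher. The median log2 fold change of the list was −0.25. The 5 loci listed with the *LHCB1* copies of Col (*CAB1*, *CAB2*, *CAB3*, *LHB1B1* and *LHB1B2*) share all homologs and cannot be assigned one by one. The 3 on chromosome 1 fell by 0.14 to 0.67, with edgeR adjusted p-values from 8.95e-13 to 0.00668, and the 2 on chromosome 2 were not called, with −0.02 and 0.08. *NPQ4*, which encodes PsbS, the sensor of excess light in PSII, had 1349, 1359 and 1356 TPM in WT and 779, 757 and 741 TPM in *dme-2* shoots (−0.83, standard error 0.04, edgeR adjusted p = 7.28e-14).

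One of the 2 leaf ferredoxin loci (ATLER-1G21350) had 501, 483 and 477 TPM in WT and 236, 260 and 239 TPM in *dme-2* (−1.06, standard error 0.05, edgeR adjusted p = 2.21e-14). The other (ATLER-1G73600) had −0.15, and both are listed with the same 2 homologs. The lowest value of the list was −1.14 for *ELIP1*, a light-stress relative of the antenna proteins, which was at 15.5, 14.7 and 14.4 TPM in WT and 8.38, 6.91 and 7.57 TPM in *dme-2*. The one locus called higher was the homolog of AT2G26500, PETM of the cytochrome b6f complex, at 0.12 (edgeR adjusted p = 0.025).

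Of 11 regulators of greening, 9 were called lower and 1 higher in *dme-2* shoots, against 26.1% and 26.7% of all loci tested. The median of the 11 was −0.49. *GLK1*, listed under the synonym *GPRI1*, had 118, 109 and 113 TPM in WT and 84.7, 80.5 and 87.8 TPM in *dme-2* (−0.42, standard error 0.05, edgeR adjusted p = 1.81e-07). *GLK2* had 83.9, 86.8 and 80.6 TPM in WT and 58.1, 61.9 and 56.2 TPM in *dme-2* (−0.49, standard error 0.05, edgeR adjusted p = 3.23e-08). These transcription factors are known activators of antenna genes, and the genotypes did not overlap for either. *HY5*, a light-signalling factor, had the lowest value (−0.80), at 8.75, 5.85 and 6.94 TPM in WT and 4.19, 4.34 and 5.71 TPM in *dme-2*. *GUN1*, *GUN4* and *GNC* were called lower too (−0.71, −0.49 and −0.79). *PIF3*, which represses greening in the dark, was the one regulator called higher, at 38.6, 33.0 and 33.0 TPM in WT and 52.7, 52.0 and 52.1 TPM in *dme-2* (0.59, standard error 0.06, edgeR adjusted p = 4.90e-09). *PIL5*, also named PIF1 and likewise a repressor of greening in the dark, was called lower (−0.50, edgeR adjusted p = 1.41e-06), as was *PIL6* (−0.18, edgeR adjusted p = 0.00525), and *PIF4* was not called (0.11, edgeR adjusted p = 0.0651).

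Markers of cell types moved with the genotype in the same shoot libraries, where 26.1% of all loci tested were called lower and 26.7% higher. All 6 leaf mesophyll loci were called lower, and their summed TPM was 25613 to 27863 in WT and 16979 to 19386 in *dme-2*, a ratio of the means of 0.664 against 0.879 for the members. A single *RBCS* locus (ATLER-1G80510), with means of 15548 TPM in WT and 9499 TPM in *dme-2*, held most of this sum. The *RBCS* loci are all listed with the same homologs, so that the split of reads among them is uncertain. Outside them, *RCA* was at 77.6% and *CA1* at 92.5% of the WT mean. The 7 shoot meristem markers summed to 72.0 to 74.9 TPM in WT and 94.5 to 102.6 TPM in *dme-2*. In that list *STM* and *KNAT1*, which maintain the meristem, were called higher at 1.05 and 0.56 (edgeR adjusted p = 4.17e-09 and 2.20e-07), 3 loci were not called, and *WUS* and *CLV3* were below the filter, at 0 in some libraries of each genotype. The 8 root and callus markers summed to 32.6 to 34.0 TPM in WT and 25.8 to 28.1 TPM in *dme-2*. Of 4 tested loci, 3 were called lower, and *LBD29* and *PLT2* were at 0 in all shoot libraries. Most of the sum came from *SCR* and *SHR*, with means of 17.5 and 12.4 TPM in WT and 13.7 and 9.89 TPM in *dme-2*. These 2 genes had higher WT means in shoots than in calli. *WOX5* was lower in *dme-2* shoots (0.877 against 2.05 TPM), whereas *LBD18* (1.95 against 1.19 TPM) and *LBD16* (0.253 against 0.23 TPM) were higher. The part of tissue composition in the lower values of the members was not tested.

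**Figure D4:**
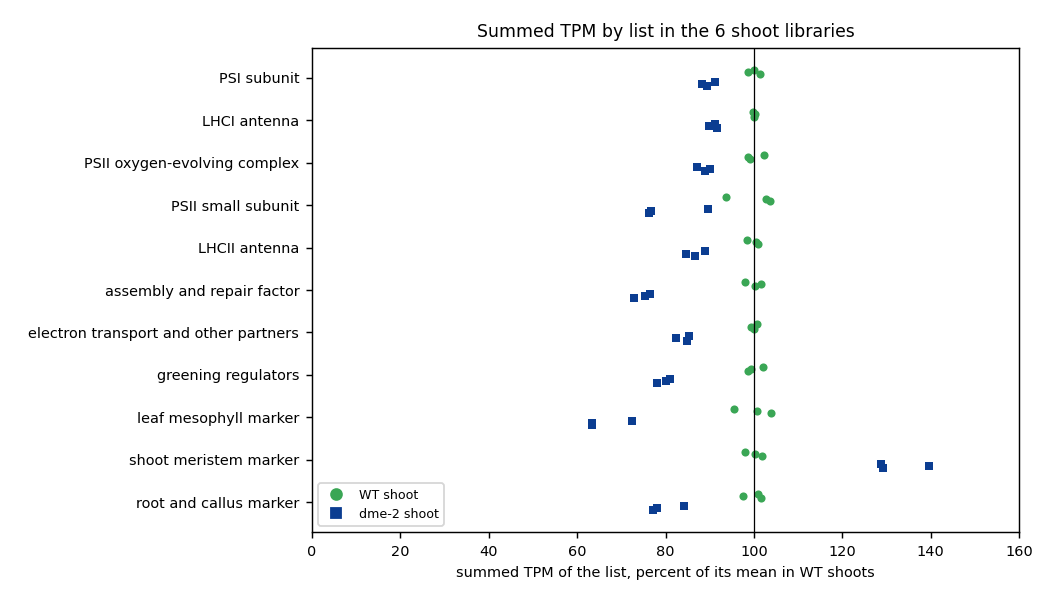
Summed TPM of each subunit class and of the partner, regulator and marker lists in the 6 shoot libraries, as a percent of the mean of the 3 WT shoot libraries. Circles are WT and squares *dme-2*. Every list except the shoot meristem markers lies below WT in all 3 *dme-2* libraries, the mesophyll markers lowest (63.3% to 72.3%).

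In calli, the members were low and no genotype difference was called. By limma on log2(TPM + 1), 40 of the 43 members passed the filter of a mean of at least 1 TPM, whereas *LHCA6*, *LHCB7* and *PSBP-2* did not. None was called higher or lower, where 0.0529% of 17029 loci were called higher and 0.0881% lower, and 6 had an unadjusted p under 0.05. Of 17029 loci 1373 had such a p. The fit of all 12 libraries, which gives calli a share of the smaller spread of shoots, called 2 members and 190 of 18813 loci lower. The median difference of the members was −0.31, against 0.04 for all loci. Single libraries moved it in both directions. The *dme-2* callus replicate 3 was the lowest of its group in 31 of 43 members, and without it the median was −0.13. The WT callus replicate 1 was the lowest of its group in 29 of 43 members, and without it the median was −0.38. The full range with 1 library left out was −0.42 to −0.13. Replicates also varied far more than in shoots, with a median coefficient of variation of 19.0% in WT and 26.7% in *dme-2* calli.

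*LHCA5* had the smallest unadjusted p. It was at 10.8, 10.7 and 11.2 TPM in WT calli and 6.28, 4.30 and 4.84 TPM in *dme-2* calli, a log2 difference of −0.97 (standard error 0.17, limma adjusted p = 0.135). It thus lay below WT in all 3 *dme-2* libraries at both stages. *PSBO2* was at 8.05, 11.4 and 7.43 TPM in WT and 5.66, 5.07 and 3.81 TPM in *dme-2* calli (−0.76, standard error 0.22, limma adjusted p = 0.382). These were the 2 members called by the fit of 12 libraries (limma adjusted p = 0.00137 and 0.0248).

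*PSAN*, a lumen subunit of PSI, was at 8.03, 8.47 and 4.89 TPM in WT calli and 4.49, 2.82 and 1.36 TPM in *dme-2* calli (−1.12, standard error 0.35, limma adjusted p = 0.454). The differences of the PSAE pair had opposite signs. *PSAE-1* was at 18.1, 15.6 and 22.6 TPM in WT and 9.72, 13.2 and 3.01 TPM in *dme-2* (−1.21, standard error 0.45, limma adjusted p = 0.554). *PSAE-2* was at 5.52, 7.85 and 12.2 TPM in WT and 19.7, 13.1 and 12.3 TPM in *dme-2* (0.78, standard error 0.30, limma adjusted p = 0.57). Neither difference was called, although no values overlapped for these genes. The ratio of *PSAE-1* to *PSAE-2* was 1.85 to 3.29 in WT calli and 0.245 to 1.01 in *dme-2* calli, while in shoots it was 3.03 to 3.16 and 2.63 to 3.05. In all, 6 members lay below WT in all 3 *dme-2* callus libraries, as did 5.75% of loci, and 2 lay above, as did 7.53%. None of the 23 partner and 8 regulator loci tested in calli was called. The 6 mesophyll loci summed to 37.9 to 70.0 TPM in WT and 34.1 to 45.8 TPM in *dme-2* calli, and the 8 root and callus loci to 103 to 123 and 92.6 to 121 TPM, so that both overlapped between genotypes.

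Whether the genotype difference itself changed between the stages was tested as an interaction by limma over all 12 libraries. Of the 43 members, 3 were called with a lower difference in shoots than in calli and none with a higher one, where 4.20% of 18813 loci were called lower and 6.75% higher, and a count of 3 was read as no result about the members as a group. By an unadjusted p under 0.05 there were 8 members, and 4820 of the 18813 loci had such a p. The 3 called members were *LHCB4.3*, *PSBQA* and *PSB29*. *LHCB4.3* was at 1.84, 1.12 and 1.12 TPM in WT calli and 1.85, 2.37 and 2.41 TPM in *dme-2* calli, so that *dme-2* was above WT there and below it in shoots. The difference of the 2 genotype effects was −1.24 (standard error 0.18, limma adjusted p = 0.00177), and it stayed called with each library left out (limma adjusted p up to 0.00799).

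*PSBQA* was at 6.21, 6.92 and 8.65 TPM in WT calli and 11.1, 10.4 and 8.56 TPM in *dme-2* calli, and its interaction was −0.68 (standard error 0.16, limma adjusted p = 0.023). *PSB29* was at 26.9, 31.3 and 23.1 TPM in WT calli and 30.8, 27.2 and 33.2 TPM in *dme-2* calli, with an interaction of −0.58 (standard error 0.15, limma adjusted p = 0.0345). Both sets of callus values overlapped. With 1 library left out, *PSBQA* had adjusted p-values of 0.00685 to 0.061 and lost its call without *dme-2* callus replicate 1 and without WT replicate 2 or 3 or *dme-2* replicate 2 or 3 of the shoots. It also lost its call when TPM was rescaled by the median ratio (limma adjusted p = 0.152). *PSB29* had 0.0118 to 0.0852 and kept its call only without WT callus replicate 2 and without *dme-2* callus replicate 2. For the other 40 members a difference between the stages was not detected at this spread of the callus libraries, which does not show that the effects were alike.

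**Figure D5:**
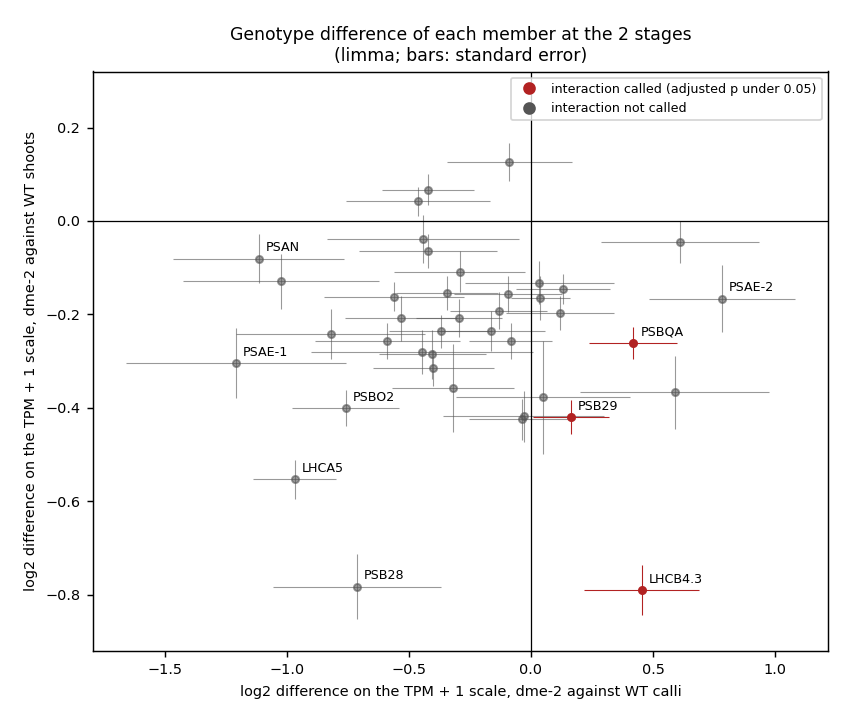
Genotype difference of the 40 members tested in calli (horizontal axis) and in shoots (vertical axis), both by limma on log2(TPM + 1), with bars for the standard errors. Red points are the 3 members with a called interaction, *LHCB4.3*, *PSBQA* and *PSB29*, which lie right of 0 in calli and below 0 in shoots, and the bars are wider in calli than in shoots.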

How the data were processed

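RNA-seq of 12 libraries was analysed. The authors made stranded mRNA libraries, aligned the reads with STAR 2.7.10a to the assembly of L*er* and quantified transcripts with RSEM 1.3.1. The authors deposited counts per L*er* locus as whole numbers without normalization, and how these counts were derived is not given in the sources used here. They also deposited TPM values, which correct for length and sum to the same value in every library, so depth is not known from TPM. Of the per-sample columns, 0 were left unused. Total counts per library set the precision of counts.

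Groups and replicate numbers came from the sample labels. The count test was the quasi-likelihood test of edgeR 4.0.16 in R 4.3.3 (TMM, filterByExpr), each comparison on its own 6 libraries. Where *dme-2* calli entered, limma 3.58.1 (eBayes, trend) was run on log2(TPM + 1) after loci with a mean below 1 TPM had been dropped. All p-values were Benjamini-Hochberg adjusted over all loci tested. They weigh the difference between groups against the spread among the 3 libraries within each group, which both tools moderate over loci. Standard errors given for edgeR were derived from the log2 fold change and the F statistic of the quasi-likelihood test. Alternatives were RLE, library size only, other filters (at least 1 count, or 10 counts in every library), DESeq2 1.42.0, fits of 9 or 12 libraries together, a replicate block, TPM in limma for shoots, pseudocount 0.1, TPM rescaled by the median ratio, edgeR on the count columns labelled *dme-2* callus, and leaving out each library. Limma on rescaled TPM of shoots was added after seeing the data. In counts simulated from the mean levels of the shoot libraries, edgeR recovered 200 of 200 loci changed 2-fold, with 10 false calls among 19035 loci. The simulated spread was set by hand and alike for all loci, and only better covered loci were changed. Smaller changes, such as those of the members in shoots, were not simulated, so that their recovery is not known from it.

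Loci were named by their homologs in Col. Symbols of members came from the deposited names, and those of the partner, regulator and marker loci from the TAIR10.1 annotation of RefSeq. Among the 43 members, 31 had 1 homolog and 12 had more. The latter were given the homolog on their own chromosome, and are uncertain where reads could be split. Where no single homolog lay on that chromosome, as for some *LHCB2* loci, the family name is given with the locus. Values in every library were given, by rule, for the member of each class with the highest WT shoot TPM and those with the highest and lowest log2 fold change in shoots, and for the 5 members with the lowest p in calli. Others were named for their role or after their values were seen. Members, classes and lists were chosen with earlier results of these data known. No coordinates or sequences are given, because the reference used here for names is of the Col genome and not of L*er*.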

Additional observations from a re-analysis of the deposited data

Results flagged for a closer look

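For 3 members the genotype difference was called different at the 2 stages by the limma interaction test. All 3 were called lower, as were 4.20% of 18813 loci, and this count was read as no result about the members as a group. In each the *dme-2* mean was above WT in calli and below it in shoots. Of 16 alternatives on TPM, *LHCB4.3* kept its call in 16, *PSBQA* in 9 and *PSB29* in 5. The callus values of *PSBQA* and *PSB29* overlapped between genotypes. The difference in shoots minus that in calli was −1.24 on the log2(TPM + 1) scale for *LHCB4.3*, −0.68 for *PSBQA* and −0.58 for *PSB29*. For *LHCB4.3* the callus values were between 1.12 and 2.41 TPM, where the pseudocount weighs on the difference, and with a pseudocount of 0.1 it was −1.49.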

How the results depend on the processing

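The rise of all 43 members from callus to shoot kept its calls and direction in both genotypes under every alternative, except that 39 members could be tested in WT with at least 10 counts in every library. In *dme-2* against WT shoots, the 33 called members kept their sign under every alternative, and 31 were lower. With 9 libraries in one fit 9 were lower and 0 higher, where 2362 and 3075 of 19954 loci were. Of the 10 members not called, 6 were called in at least 1 alternative with their sign kept: *PSAD-2*, *PSAE-2*, *PSAL*, *PSBQ-2* and *PSBR* with library size only, *PSAE-2* with loci of at least 1 count, and 4 of the 6, including *PSAF*, with 1 library left out. The 2 higher calls became 1 with library size only, with limma on TPM, with limma on rescaled TPM and with the replicate block, and 0 to 2 with 1 library left out. In calli, the count columns labelled *dme-2* callus gave 3 higher and 27 lower calls in place of 0. Over all 18856 loci tested with them, 8027 were called higher and 7476 lower. With 12 libraries in one fit 2 members were lower, as were 190 of 18813 loci. The count columns reversed *LHCB4.3* (−0.910), *PSB29* (−0.47), *PSBQA* (−0.52) and *PSBO2* (0.0700) in calli. They also reversed the interactions of *LHCB4.3* (0.0713), *PSB29* (0.0436) and *PSBQA* (0.24). For the interaction they gave 25 higher calls in place of 0, where 7574 of 20319 loci were called higher. The interaction gave 0 to 3 higher and 1 to 6 lower calls with 1 library left out, and 1 lower call with the replicate block. The correlations of same-numbered libraries were −0.39 to 0.03, and those of differently numbered libraries −0.24 to 0.46. Same-numbered libraries thus were not more alike, but so few libraries per group cannot exclude a pairing. Under the block 31 of the 33 shoot calls were kept and no callus member was called. The cause of these changes was not tested, except that the count columns and TPM columns of *dme-2* callus differ in content. Depth limits statements on *LHCA6*, *LHCB7* and *PSBP-2* in calli.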
